A study of Mus musculus with 15 samples.

Results

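The genes described here are the 4 tissue inhibitors of metalloproteinases (Timp1, Timp2, Timp3 and Timp4), the matrix metalloproteinases Mmp2, Mmp3 and Mmp14, the related secreted protease Adamts1 and the secreted serine protease Htra1. They were chosen by name, as every probe set annotated to these symbols, which gave 9 genes of the 18194 named on the array and 22 of its 45101 probe sets. A probe set is the group of short oligonucleotides that reports 1 transcript. Timp2 has 6 probe sets, Timp3 has 4, Mmp14 has 3, Timp4, Mmp2 and Htra1 have 2 each, and Timp1, Mmp3 and Adamts1 have 1 each.

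RNA was measured on Affymetrix mouse 430 arrays in mice lacking the vessel-wall receptor Notch3 on both chromosomes (Notch3 -/-) and in mice that kept 1 copy (Notch3 +/-). All were C57BL6J males of 10 to 12 weeks. Smooth muscle cells and pericytes sorted from brain gave 4 Notch3 +/- and 5 Notch3 -/- arrays, each from its own mouse. Each genotype had a further 3 arrays from aorta explants. There was no wild-type group, so every animal carried at least 1 disrupted copy of Notch3, and every genotype difference below is no copy against 1 copy. Nothing in the labels says that the aorta arrays came from separate animals, and p-values there speak only to array-to-array spread, which may be technical. Brain cells were sorted straight into lysis buffer while aorta RNA was taken from intact tissue with Trizol, so tissue, sorting and extraction cannot be told apart.

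Metalloproteinases are zinc enzymes that cut collagens, elastin, proteoglycans and basement membrane proteins, and TIMPs bind their active sites and hold them in check. MMP14 sits in the cell membrane and, with TIMP2 as an adaptor, converts the inactive precursor of MMP2 to the active gelatinase. TIMP3 is the inhibitor that stays bound to the matrix and also acts on ADAM and ADAMTS enzymes, among which ADAMTS1 cuts the large proteoglycans aggrecan and versican. HTRA1 is a secreted serine protease that degrades matrix proteins. Loss of HTRA1 in people causes a small-vessel disease of the brain, and mutations of NOTCH3 cause another.

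RefSeq (GRCm38.p6) gave a promoter window for 8 of the 9 genes, and 3 are printed. No result below rests on them. Timp4 has the largest genotype difference of these genes in aorta, and Timp1 is the only window with the letters TGGGAA. Mmp3 is near the bottom of the scale in brain and bright in aorta. Each is the 250 bases before the annotated start, 5′ to 3′ on the gene's strand, at chr6:115252206-115252455 on the minus strand for Timp4, chrX:20869916-20870165 on the plus strand for Timp1 and chr9:7445572-7445821 on the plus strand for Mmp3. Capitals mark TGGGAA, the core letters read by RBPJ, the DNA-binding partner of Notch receptors, and TGANTCA, the letters read by AP-1.
Timp4: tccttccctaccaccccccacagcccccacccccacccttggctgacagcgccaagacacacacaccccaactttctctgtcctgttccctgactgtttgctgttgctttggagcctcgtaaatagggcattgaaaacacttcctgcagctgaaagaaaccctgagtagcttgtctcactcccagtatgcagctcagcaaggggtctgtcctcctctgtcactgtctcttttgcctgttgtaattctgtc
Timp1: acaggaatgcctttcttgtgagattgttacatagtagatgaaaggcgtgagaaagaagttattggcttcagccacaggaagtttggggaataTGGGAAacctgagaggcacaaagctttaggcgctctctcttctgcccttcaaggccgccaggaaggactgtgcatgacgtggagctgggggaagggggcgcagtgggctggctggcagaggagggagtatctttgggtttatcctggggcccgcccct
Mmp3: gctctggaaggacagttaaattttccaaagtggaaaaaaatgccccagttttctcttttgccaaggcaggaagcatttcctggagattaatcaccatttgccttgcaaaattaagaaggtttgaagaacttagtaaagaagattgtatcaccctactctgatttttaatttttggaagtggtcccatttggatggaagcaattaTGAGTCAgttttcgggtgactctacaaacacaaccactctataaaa
On either strand, TGGGAA stood in 21.6% of 32851 mouse promoter windows of the same length and TGANTCA in 6.75%. Among the 8 members, TGGGAA stood only in Timp1, at -158 to -153 on the plus strand, and TGANTCA only in Mmp3, at -46 to -40. TGANTCA is its own reverse complement, so its match has no strand. The Timp4 window held neither, nor the palindromic motif of the glucocorticoid receptor, which stood in 0.00913% of windows. These are matches of letters, not measured binding.

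Values are linear intensities, which the authors had brought to a target of 150 on each array. Differences are on the log2(intensity + 16) scale, which understates changes of dim probe sets. Adjusted p-values are from limma with Benjamini-Hochberg adjustment over all 22519 probe sets tested in a comparison. Arrays of the same group correlated at 0.932 or more. The targeted gene followed the labels. Notch3 (1421965_s_at) measured 2616 ± 222 (SD, n = 4) in brain cells with 1 copy and 210 ± 37 (n = 5) in those with none, a difference of -3.56 (limma adjusted p = 4.31e-08), and 401 ± 47.2 against 108 ± 34.1 (n = 3 each) in aorta, where the arrays did not overlap and the difference of -1.78 did not pass the test (limma adjusted p = 0.135). The sorted brain cells carried mural markers, with a summed intensity of 45691 to 77964 over 12 genes in Notch3 +/- and 34180 to 40825 in Notch3 -/-. They also carried markers of other brain cells, with sums of 19320 to 32599 for endothelium (8 genes), 12175 to 33283 for astrocytes (7), 23779 to 39892 for oligodendrocytes (5), 7942 to 15063 for microglia (7) and 20117 to 46397 for choroid plexus (5), whose ranges overlapped between genotypes.

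No gene of the 9 passed the 5% threshold between genotypes in either tissue. In brain 16 of the 22 probe sets were bright enough to be tested and 0 passed, where 0.142% of all tested probe sets did (32, of which 27 were lower in Notch3 -/-). Of the 16, 1 had an unadjusted p under 0.05, against 9.39% of all. The arrays of the genotypes did not overlap at 1 of them, which was lower in Notch3 -/-, where 1.85% of all tested probe sets were lower without overlap. In aorta 20 were tested and 0 passed, as for all probe sets (0%). By unadjusted limma p-values 980 probe sets, 4.35% of all, lay under 0.05 in aorta, and 3 of them were members. The aorta arrays did not overlap at 3 member probe sets that were lower in Notch3 -/-, against 4.75% of all tested, and at 1 that was higher, against 4.72%. The median difference over the members tested was -0.06 in brain and 0.06 in aorta, beside 0.01 and 0.00 over all probe sets.

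**Figure D1:**
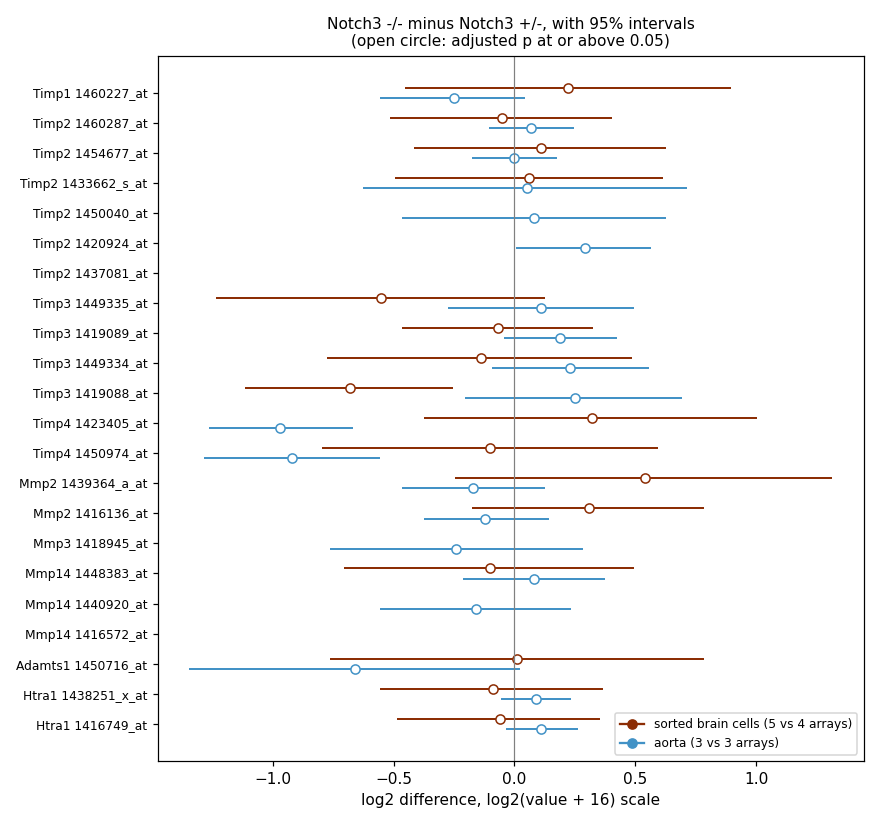
Difference between Notch3 -/- and Notch3 +/- for each member probe set, with the 95% interval of the fit, in sorted brain cells and in aorta. The x axis is the log2 difference on the log2(intensity + 16) scale, and probe sets without a mark were too dim to be tested. Every circle is open, since none passed the 5% threshold, and the aorta marks farthest from 0 are the Timp4 probe sets at -0.97 and -0.92.

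Timp4, the TIMP best known from heart and brain, stood lowest in Notch3 -/- aorta. Its brighter probe set (1423405_at) measured 191, 195 and 204 on the Notch3 +/- aorta arrays and 87.8, 109 and 83.1 on the Notch3 -/- arrays, means of 197 ± 6.57 and 93.4 ± 14 (SD, n = 3 each). The groups did not overlap, and the lowest Notch3 +/- array lay far above the highest Notch3 -/- array. The difference was -0.97 with a standard error of 0.13 (95% interval -1.26 to -0.67, 1.96-fold). It did not pass 5% after adjustment (limma adjusted p = 0.279). The second Timp4 probe set (1450974_at), which is dimmer, gave 88.9, 95.3 and 100 against 40, 53.5 and 35.7. These arrays did not overlap either, and the difference was -0.92 (95% interval -1.28 to -0.56, limma adjusted p = 0.432). Leaving out each aorta array in turn kept the difference of the brighter probe set between -1.07 and -0.90, with adjusted p from 0.181 to 0.667. The titles of 6166 and 6167 belong to another number series than the other 4. The Timp4 order held within each series, and with the series as a block the difference was -0.97 (limma adjusted p = 0.159, with a range of 0.159 to 1 over the alternatives).

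In sorted brain cells the same Timp4 probe set spread widely within each genotype. The Notch3 +/- arrays measured 600 (E), 1598 (G), 1325 (I) and 1825 (H), and the Notch3 -/- arrays 1048 (A), 1226 (B), 1890 (C), 2723 (D) and 1313 (F). The groups overlapped over most of their range, and the difference was 0.32 with a standard error of 0.32 (limma adjusted p = 0.796). It was -0.03 without array E, the lowest of all. At the dimmer probe set it was -0.10 (95% interval -0.79 to 0.59). The genotype difference in brain minus that in aorta was 1.28 for the brighter Timp4 probe set (95% interval 0.36 to 2.21), which did not pass adjustment (limma adjusted p = 0.866), and 0.82 for the dimmer one. Over all probe sets 4 of 22519 (0.0178%) passed that test, and 0 of the 19 members tested did.

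The level of astrocyte markers varied from array to array in brain and is given beside Timp4. The 7 astrocyte genes summed to 12175 on array E, where Timp4 was lowest, and to 33283 and 31392 on arrays H and D, where Timp4 was highest in its genotype. The endothelium sum was also lowest on array E (19320) and highest on H (32599) in Notch3 +/-. In Notch3 -/- it was highest on array A (28566), where Timp4 was lowest in that genotype. The mural sum was lowest on E (45691) and highest on H (77964) in Notch3 +/-, but highest on B (40825) in Notch3 -/-. The oligodendrocyte sum was highest on H (34405) and D (39892) in their genotypes. Its lowest values were on G (23779) and A (27818). The astrocyte sums were 24130 (G) and 23753 (I) on the remaining Notch3 +/- arrays and 19345 (A), 19123 (B), 23067 (C) and 24146 (F) on the Notch3 -/- arrays, so the genotypes overlapped. The part of RNA from astrocytes or any of these other cells in the Timp4 level was not tested. In bulk samples fewer cells of a type and less RNA per cell cannot be told apart. In aorta 4 of the 7 astrocyte genes, Gfap, Aqp4, Slc1a2 and Gjb6, stood under 50 on every array. Gja1 was bright there, at 2306 ± 675 in Notch3 +/- and 2228 ± 241 in Notch3 -/-. It was also the brightest of the 7 in brain, at 11583 ± 4612 and 11922 ± 1502, so it weighs heavily in the astrocyte sum. Slc1a3 measured 61.2 and 59.7 in aorta and Aldoc 52.3 and 35.8. Fat cells are another source of TIMPs around the aorta. Its 6 adipocyte markers on the array (among them Adipoq, Fabp4 and Retn) summed to 7001 (5556), 4269 (5561) and 7009 (6166) in Notch3 +/- and 3635 (5558), 3238 (5559) and 5877 (6167) in Notch3 -/-. All 6 were lower in Notch3 -/- on average, with a median of -0.56 and 0 past 5%, and the sums overlapped. Their part in the Timp4 difference was not tested. In brain Adipoq, Cidec, Fabp4, Lep and Pparg stood under 50 on every array. Timp4 lies within an intron of Syn2 on the opposite strand, and Syn2 measured 80.5 ± 59.7 against 37.9 ± 2.93 in aorta and 134 ± 54 against 134 ± 24.5 in brain.

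**Figure D2:**
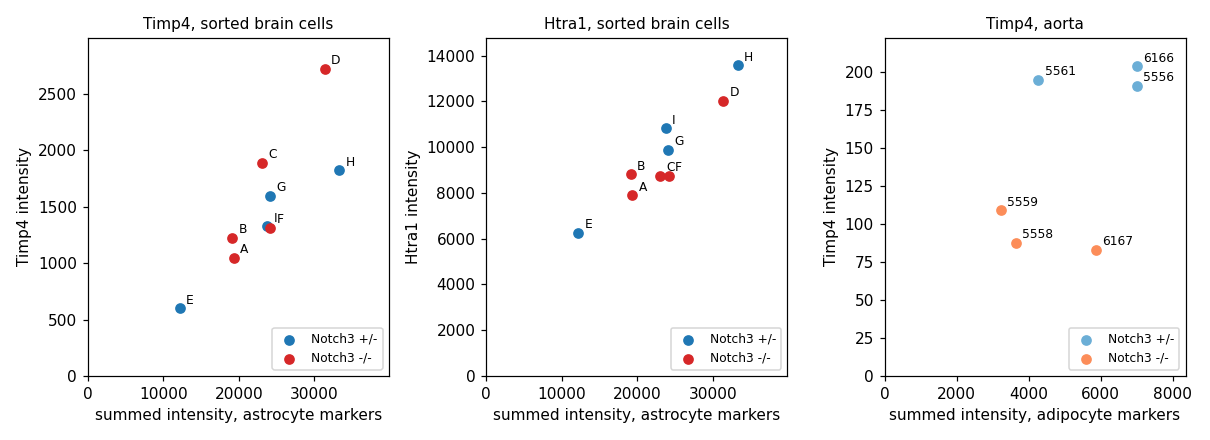
Intensity of Timp4 and Htra1 on each sorted brain array against the summed intensity of 7 astrocyte markers, and Timp4 on each aorta array against that of 6 adipocyte markers. Each point is an array with its name, and all axes start at 0. In brain array E is lowest on both axes, and in aorta the Notch3 +/- arrays lie at Timp4 intensities of 191 to 204 with marker sums of 4269 to 7009, and the Notch3 -/- arrays at 83.1 to 109 with sums of 3238 to 5877.

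Timp3, the matrix-bound inhibitor, gave the only brain probe set without overlap. Probe set 1419088_at measured 108 (E), 74.6 (G), 140 (I) and 114 (H) in Notch3 +/- and 71.8 (A), 50.6 (B), 56.9 (C), 55.5 (D) and 70.1 (F) in Notch3 -/- brain cells. Every Notch3 -/- array lay below every Notch3 +/- array, though array G exceeded array A by little. The difference was -0.68 with a standard error of 0.20 (95% interval -1.11 to -0.26), and it did not pass adjustment (limma adjusted p = 0.31). Leaving out each array in turn gave -0.83 to -0.57. The other 3 Timp3 probe sets overlapped in brain. At the brightest, 1449335_at, 4 Notch3 -/- arrays stood at 1473 (B), 1105 (C), 1341 (D) and 809 (F), all below the Notch3 +/- arrays at 2484 (E), 2379 (G), 2122 (I) and 1614 (H), but the fifth, array A, was the highest of all at 3494. The difference there was -0.55 (95% interval -1.23 to 0.12, limma adjusted p = 0.605). Probe sets 1419089_at and 1449334_at gave -0.07 and -0.14, and turned to 0.02 without array E and to 0.06 without array C. In aorta all 4 lay between 0.11 and 0.25 with overlapping arrays. The genotype difference in brain minus that in aorta was -0.93 at 1419088_at (95% interval -1.55 to -0.32, limma adjusted p = 0.784).

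Most mural markers moved the same way as this Timp3 probe set in brain, but not all. Of the 11 smooth muscle and pericyte genes tested 9 were lower in Notch3 -/-, with a median of -0.43. Of these 2 (Myh11 and Tagln, both contractile proteins) passed 5%. Kcnj8 (0.29) and Cspg4 (0.11) were higher. The mural sums did not overlap between genotypes, and Acta2, Rgs5 and Pdgfrb, the brightest of the genes in brain, weigh heavily in them. Values of single arrays within each genotype are given here as a description. In Notch3 -/- the mural sum was highest on array B (40825), where 1419088_at was lowest (50.6). The sum was lowest on F (34180) and A (34237), where the probe set was highest (70.1 and 71.8). In Notch3 +/- array I had a sum of 46778 with 140 at the probe set, and array G 53041 with 74.6. The part of fewer mural cells, or less mural RNA, in the Timp3 values was not tested. Timp3 lies inside Syn3, which measured 28 ± 18.9 and 20.8 ± 9.59 in brain.

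**Figure D3:**
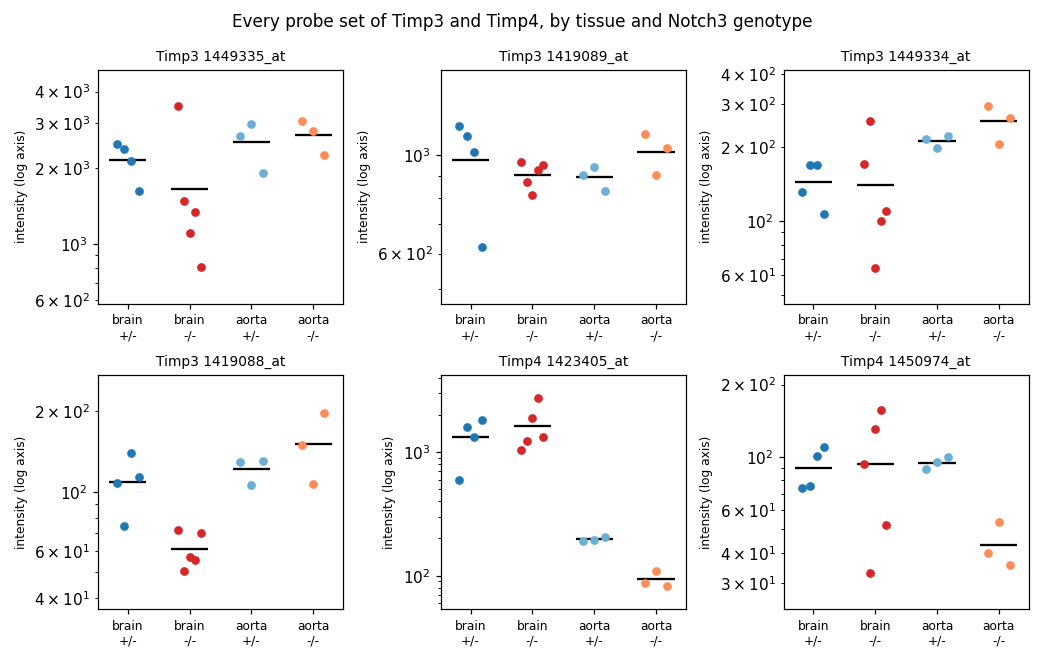
Intensity on each array at the 4 Timp3 and 2 Timp4 probe sets, by tissue and Notch3 genotype. Points are arrays, black lines are group means, the y axes are logarithmic and differ between panels, and the sideways offset only separates points. Timp3 1419088_at separates the genotypes in brain (74.6 to 140 against 50.6 to 71.8), the other Timp3 probe sets do not, and both Timp4 probe sets separate them in aorta.

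Timp1, the inducible inhibitor of wound repair and inflammation, has 1 probe set (1460227_at). In aorta it measured 223, 297 and 248 in Notch3 +/- and 223, 216 and 193 in Notch3 -/-, means of 256 ± 37.5 and 211 ± 15.7 (n = 3 each). The groups did not overlap only by a margin smaller than the rounding, and the difference of -0.25 did not pass (95% interval -0.55 to 0.04, limma adjusted p = 0.999). In brain it was 71.1 (E), 78 (G), 33.1 (I) and 53.8 (H) against 109 (A), 80.4 (B), 74.9 (C), 87 (D) and 23.1 (F). Array F was the lowest of all 9 and the other Notch3 -/- arrays the upper part of the range, with a difference of 0.22 (95% interval -0.45 to 0.89, limma adjusted p = 0.864). Timp1 lies inside Syn1, which measured 157 ± 23.2 and 189 ± 38.3 in brain.

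Timp2, the adaptor and inhibitor of MMP14 and MMP2, did not differ beyond its spread between genotypes at the probe sets that were bright in both tissues. At the brightest, 1460287_at, brain cells measured 1585 (E), 1262 (G), 773 (I) and 1240 (H) against 1093 (A), 1625 (B), 1102 (C), 1038 (D) and 927 (F). Aorta measured 3335, 3463 and 3654 against 3388, 3961 and 3630. The differences were -0.05 (95% interval -0.51 to 0.40) and 0.07 (-0.10 to 0.24), and probe sets 1454677_at and 1433662_s_at lay between -0.00 and 0.11 in both tissues. The aorta arrays of dim probe set 1420924_at did not overlap, at 108, 105 and 107 in Notch3 +/- and 122, 133 and 147 in Notch3 -/-. That difference of 0.29 (limma adjusted p = 0.999) was not shared by the brighter probe sets. Dim probe set 1450040_at was below the level for testing in brain. It measured 25.5 ± 19.9 in Notch3 +/- and 54.6 ± 30.6 in Notch3 -/- brain cells, with overlapping arrays. With no such filter its difference was 0.73 (95% interval -0.12 to 1.58, limma adjusted p = 0.701), and in aorta it was 0.08. Probe set 1437081_at stayed between 1.38 and 13.9 on every array and was not tested.

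Mmp2, the gelatinase that cuts denatured collagen and type IV collagen, measured 456 (E), 219 (G), 102 (I) and 148 (H) in Notch3 +/- and 313 (A), 554 (B), 191 (C), 336 (D) and 201 (F) in Notch3 -/- brain cells at 1439364_a_at. The genotypes overlapped, with a difference of 0.54 (95% interval -0.24 to 1.31, limma adjusted p = 0.667). The other probe set, 1416136_at, gave 0.31 (95% interval -0.17 to 0.78), and the 2 values were 0.91 and 0.55 without array E, the highest Notch3 +/- array, and 0.25 and 0.17 without array I, the lowest. Markers of fibroblasts, which make much MMP2, were higher in the same direction. Of 9 tested in brain 7 were higher in Notch3 -/-, with a median of 0.70 and 0 past 5%, and their sums were 4106 to 5787 in Notch3 +/- and 5095 to 9943 in Notch3 -/-. Array I had the lowest fibroblast sum (4106) and the lowest intensity at both Mmp2 probe sets (102 and 125). Array B had the highest sum (9943) and the highest intensity at 1439364_a_at, but at 1416136_at array E was highest (299, with a sum of 5767) and array B measured 229. Their part in the Mmp2 values was not tested. In aorta Mmp2 measured 2390, 2096 and 1616 against 1790, 1797 and 1759 at 1439364_a_at, a difference of -0.17 (95% interval -0.46 to 0.12).

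Mmp3, or stromelysin-1, which cuts proteoglycans and activates other metalloproteinases, was near the bottom of the scale in brain cells, at 11.7 to 39.9 in Notch3 +/- and 24.9 to 41.1 in Notch3 -/-. It was too dim there to be tested between genotypes. In aorta it measured 628, 1024 and 979 against 537, 966 and 732, a difference of -0.24 with overlapping arrays (95% interval -0.76 to 0.28).

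Mmp14, the membrane enzyme that activates MMP2, did not separate the genotypes at its brightest probe set, 1448383_at. Brain cells measured 130 (E), 402 (G), 208 (I) and 296 (H) against 258 (A), 163 (B), 333 (C), 219 (D) and 172 (F), and aorta 379, 330 and 455 against 399, 389 and 438. The differences were -0.10 (95% interval -0.70 to 0.49) and 0.08 (-0.21 to 0.37). A dim probe set, 1440920_at, measured 40.2 (E), 17.9 (G), 37.8 (I) and 24.7 (H) in Notch3 +/- brain cells and 7.82 (A), 4.71 (B), 4.21 (C), 4.36 (D) and 18.9 (F) in Notch3 -/-. Array F overlapped array G there, the other 4 Notch3 -/- arrays did not, and the values were below the level set for testing. With no such filter its difference of -0.95 had a limma adjusted p of 0.358. The third Mmp14 probe set, 1416572_at, stayed under 50 in brain, from 2.43 to 7.75, and was not tested.

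Adamts1 showed a wide spread in both tissues. Brain cells measured 2487 (E), 2474 (G), 1835 (I) and 946 (H) in Notch3 +/- and 1196 (A), 2750 (B), 2500 (C), 2779 (D) and 873 (F) in Notch3 -/-. Arrays H, A and F stood low in both genotypes, and the difference was 0.01 (95% interval -0.76 to 0.78). Aorta measured 583, 1045 and 1486 in Notch3 +/- and 623, 468 and 767 in Notch3 -/-. The Notch3 -/- arrays overlapped with array 5556 of the Notch3 +/- group, and the difference of -0.66 did not pass (95% interval -1.34 to 0.02, limma adjusted p = 0.999). It was -1.02 without array 5556 and -0.36 without array 6166, with limma adjusted p from 0.522 to 1 on leaving out arrays.

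Htra1 did not separate the genotypes in either tissue. At 1438251_x_at brain cells measured 6254 (E), 9874 (G), 10826 (I) and 13581 (H) in Notch3 +/- and 7900 (A), 8814 (B), 8742 (C), 12018 (D) and 8761 (F) in Notch3 -/-. Array E was lowest and arrays H and D highest, as for the astrocyte sum. In Notch3 +/- the mural and endothelium sums were also lowest on E and highest on H. The oligodendrocyte sum was highest on H and D in their genotypes. The part of any of these cells in the Htra1 values was not tested. Between genotypes the difference was -0.09 (95% interval -0.55 to 0.36). Aorta measured 6636, 7136 and 6842 against 6807, 7626 and 7494, a difference of 0.09 (95% interval -0.05 to 0.23). The second probe set, 1416749_at, gave -0.06 (95% interval -0.48 to 0.35) in brain and 0.11 (-0.03 to 0.26) in aorta. The aorta intervals do not reach the difference measured for Timp4 there (-0.97). They rest on array-to-array spread, which may be technical, so they cannot exclude such a difference between mice.

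**Figure D4:**
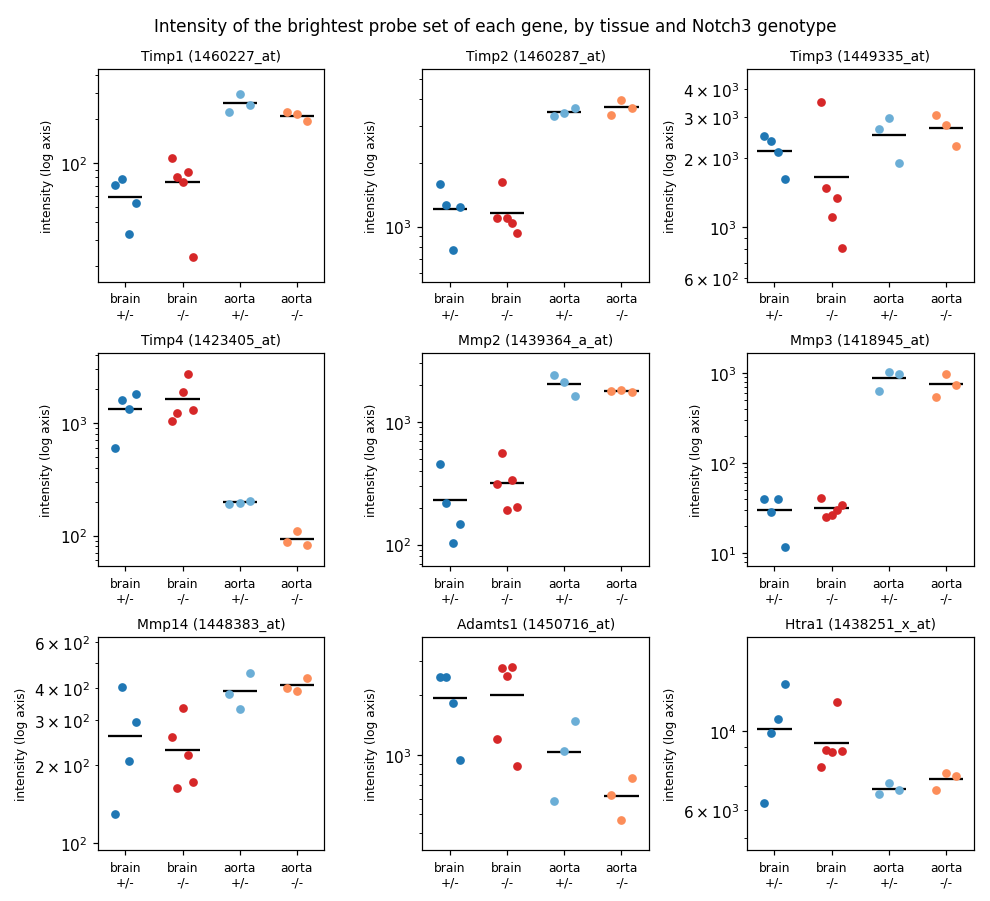
Intensity on each array at the brightest probe set of each of the 9 genes, by tissue and Notch3 genotype. Points are arrays, black lines are group means, the y axes are logarithmic and differ between panels, and the sideways offset only separates points. Mmp2 and Mmp3 lie far lower in brain cells than in aorta in both genotypes, Timp4 lies higher (600 to 2723 against 83.1 to 204), and Htra1 lies at a like level.

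Mmp2, Mmp3, Timp1 and Timp2 were lower in sorted brain cells than in aorta in both genotypes, and Timp4 was higher at its brighter probe set. In Notch3 +/- 11 of 19 member probe sets tested passed 5%, 1 higher and 10 lower in brain, where 51.8% of all tested passed (26.5% higher and 25.2% lower). In Notch3 -/- 15 passed, 2 higher and 13 lower, where 62.5% of all did (33.6% higher and 28.9% lower). By the brightest probe set of each gene, 5 of 9 genes passed in Notch3 +/- and 8 of 9 in Notch3 -/-. Mmp3 and the dim Timp2 probe sets 1450040_at and 1420924_at could be tested only because of their aorta values, so these counts are a description and support nothing about the genes as a group.

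Mmp3 stood at 30 ± 13.3 (SD, n = 4) in Notch3 +/- brain cells and 877 ± 217 (n = 3) in aorta, and at 31.4 ± 6.48 (n = 5) and 745 ± 215 (n = 3) in Notch3 -/-. Since its brain values are near the bottom of the scale, the size of the difference depends on the pseudocount, and the Notch3 +/- value of -4.30 ranged from -4.93 to -3.31 over the alternatives. Mmp2, bright enough to be tested in brain alone, was at 231 ± 157 against 2034 ± 391, with differences of -3.23 and -3.15 at its probe sets in Notch3 +/- and -2.53 and -2.73 in Notch3 -/- (limma adjusted p from 2.41e-09 to 4.25e-05). No brain array reached any aorta array for either gene. Fibroblast markers moved with these differences, with summed intensities of 39960 to 43674 in aorta and 4106 to 9943 in brain cells, and their part was not tested. Mmp14 was lower in brain cells by a smaller step, at -0.65 in Notch3 +/- (limma adjusted p = 0.0978) and -0.84 in Notch3 -/- (limma adjusted p = 0.00257). Without array G the Notch3 +/- difference was -0.89 and passed (limma adjusted p = 0.0245, with a range of 0.0245 to 0.26 on leaving out arrays).

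Among the inhibitors, Timp2 was lower in brain cells past 5% at the 3 probe sets bright enough to be tested in brain alone, 1460287_at, 1454677_at and 1433662_s_at, with differences of -1.55, -1.87 and -2.13 in Notch3 +/- and -1.67, -1.76 and -2.12 in Notch3 -/-. Its brightest probe set measured 1215 ± 334 (n = 4) in brain and 3484 ± 161 (n = 3) in aorta of Notch3 +/- mice. Timp1 was lower by -1.89 in Notch3 +/- (limma adjusted p = 7.81e-05) and -1.42 in Notch3 -/- (limma adjusted p = 0.000948). Timp4 was the gene higher in brain cells, at 1337 ± 532 against 197 ± 6.57 in Notch3 +/-, a difference of 2.56 (limma adjusted p = 5.96e-05), and at 1640 ± 683 (n = 5) against 93.4 ± 14 in Notch3 -/-, a difference of 3.84 (limma adjusted p = 2.44e-08). The Timp4 probe sets disagreed here. At 1450974_at the differences were -0.07 (limma adjusted p = 0.782) and 0.75 (limma adjusted p = 0.078). The latter passed without array B (limma adjusted p = 0.00929) and without array F (limma adjusted p = 0.0496), with a range of 0.00929 to 0.192 on leaving out arrays. It also passed with array weights and with all arrays in 1 fit (limma adjusted p = 0.0204 and 0.0449, range 0.0204 to 0.159 over the alternatives).

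Timp3 differed little between the tissues in Notch3 +/- at most of its probe sets. Its brightest probe set gave -0.22 (limma adjusted p = 0.39) and only 1449334_at passed, at -0.53 (limma adjusted p = 0.0374). That call was lost without any of arrays E (-0.50), H (-0.41), 5556 (-0.52), 5561 (-0.58) and 6166 (-0.50), and also with no filter, with quantile normalization and with all arrays in 1 fit (limma adjusted p = 0.058, 0.0511 and 0.13, range 0.0256 to 0.13 over the alternatives). In Notch3 -/- 3 of its 4 probe sets were lower in brain cells past 5%, at -1.09 (1419088_at), -0.91 (1449334_at) and -0.88 (1449335_at), and 1419089_at gave -0.17. The call at 1419088_at held on leaving out each array (-1.30 to -0.90). That at 1449334_at was lost without 5558 (-0.80) or 6167 (-0.88), and that at 1449335_at without any of B (-0.89), C (-0.79), D (-0.86), F (-0.68), 5558 (-0.79) and 5559 (-0.86), and also with no filter and with no intensity trend (limma adjusted p = 0.0707 and 0.0508, range 0.00212 to 0.0707 over the alternatives).

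Adamts1 was higher in brain cells in Notch3 -/-, at 2020 ± 913 (n = 5) against 619 ± 150 (n = 3), a difference of 1.56 (limma adjusted p = 0.0013). In Notch3 +/- it was 1936 ± 726 against 1038 ± 451, and the difference of 0.89 did not pass (limma adjusted p = 0.0619). It passed without array H or without 6166 (1.20 each), and with array weights (1.12, limma adjusted p = 0.0169, range 0.0169 to 0.105 over the alternatives). Htra1 was near even, at 0.51 and 0.33 (1438251_x_at) and 0.12 and -0.06 (1416749_at) in Notch3 +/- and -/-, none past 5%. Without array E the first was 0.72 and passed (limma adjusted p = 0.00855, range 0.00855 to 0.211), as did the second without array A (0.38, limma adjusted p = 0.0324, range 0.0324 to 0.193). With array weights both passed (limma adjusted p = 0.0465 and 0.0161), and with all arrays in 1 fit the first did (limma adjusted p = 0.0396), where the alternatives ranged from 0.0396 to 0.915 and from 0.0161 to 0.265. These signs depended on the scaling. With quantile normalization Htra1 gave -0.02 and -0.28 in Notch3 +/- and -0.17 and -0.46 in Notch3 -/-, the last past 5% (limma adjusted p = 0.0225, with a range of 0.0225 to 0.944 over the alternatives).

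**Figure D5:**
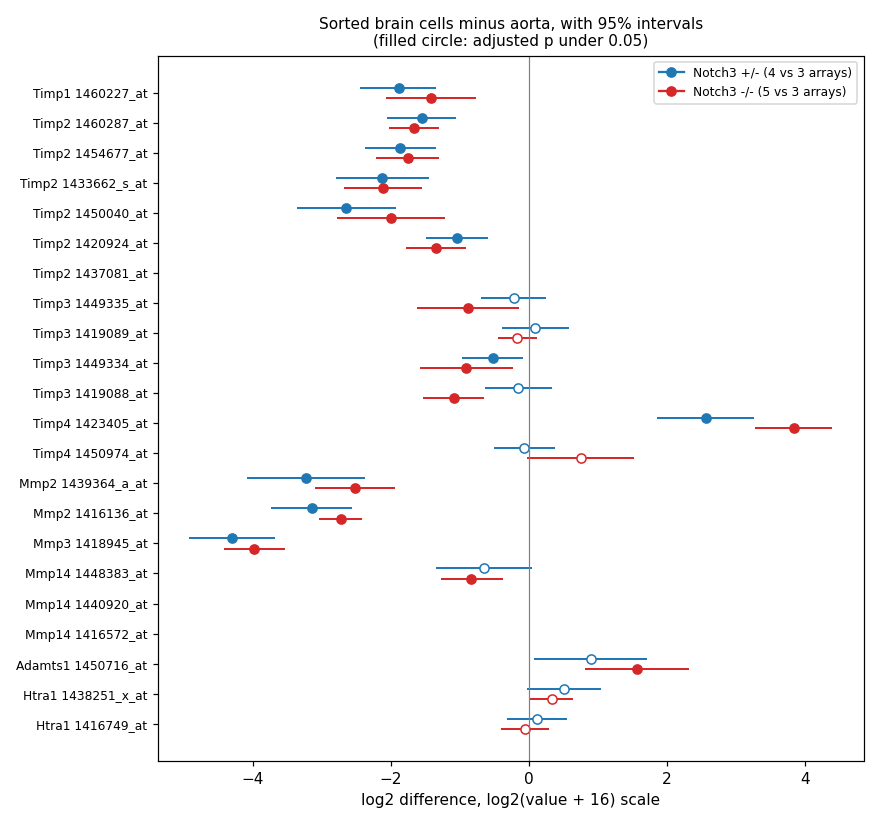
Difference of sorted brain cells minus aorta for each member probe set with its 95% interval, in Notch3 +/- and in Notch3 -/-. The x axis is the log2 difference on the log2(intensity + 16) scale, filled circles passed 5%, and probe sets without a mark were too dim to be tested. Mmp3 lies farthest to the left (-4.30 and -3.98). Mmp2 lies at -3.23 to -2.53, with Timp2 1450040_at in that range in Notch3 +/- (-2.65). Timp4 1423405_at lies farthest to the right (2.56 and 3.84), and Htra1 near 0.

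Other genes of the same system did not pass between genotypes either. In lists of other metalloproteinases, other ADAM and ADAMTS proteases, the remaining HtrA genes, other inhibitors, activators, matrix substrates and transcription regulators, 0 genes passed 5% in either tissue by limma. Nearest to a call in brain were Dcn, the collagen-binding proteoglycan decorin, at 735 ± 201 in Notch3 -/- against 320 ± 134 (1.20, limma adjusted p = 0.15), and Efemp1, the matrix glycoprotein fibulin-3 and a known HTRA1 substrate, at 725 ± 151 against 331 ± 157 (1.20, limma adjusted p = 0.157). Decorin is itself among the fibroblast markers that were higher in Notch3 -/- brain cells. Tgfb3 was lower, at 368 ± 205 against 844 ± 196 (-1.31, limma adjusted p = 0.221). The membrane-anchored Mmp17 measured 86.1 ± 25.4 against 164 ± 39.4 (-0.82, limma adjusted p = 0.246). Adamts12 was higher, at 151 ± 39.6 against 80.6 ± 13 (0.76, limma adjusted p = 0.285). So was Col3a1, another of the fibroblast markers, at 1948 ± 909 against 869 ± 262 (1.09, limma adjusted p = 0.291). The aggrecanase Adamts4 was lower, at 312 ± 108 against 572 ± 161 (-0.87, limma adjusted p = 0.321). In aorta the arrays of Mmp23 did not overlap, at 1058 ± 231 against 730 ± 131 (0.52, limma adjusted p = 0.999). The same held for the membrane-anchored inhibitor Reck, at 1933 ± 30.5 against 1722 ± 137 (0.17, limma adjusted p = 0.999). Others higher without overlap included Thbs2 (0.30), Adam10 (0.17) and Nr3c1 (0.17). Adam12 (-0.29), Rela (-0.15) and Cst3 (-0.10) were lower without overlap. Over all probe sets tested in aorta, 4.72% were higher and 4.75% lower without overlap. The aorta separations named above are to be read beside those shares.

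Between tissues these lists gave calls in both directions, to be read beside the 26.5% higher and 25.2% lower over all probe sets in Notch3 +/-. Of 22 matrix substrates tested in Notch3 +/- 13 were lower and 7 higher in brain cells past 5%, among them the proteoglycan Vcan, a substrate of ADAMTS1, at 37.1 ± 13.3 against 1756 ± 314 (-5.08), and Ltbp1, an HTRA1 substrate that anchors latent TGF-beta, at 133 ± 31.4 against 1941 ± 158 (-3.74). Vtn, or vitronectin, was higher at 10998 ± 4294 against 22.1 ± 12 (8.14). Of the HtrA genes, Htra3 was lower in brain cells (-3.29) and Htra2, a mitochondrial protease, higher (0.59). Of 5 other metalloproteinases tested Mmp23 (-3.09) and Mmp17 (-1.46) were lower and Mmp24 (1.02), a membrane enzyme of the nervous system, higher. Among 18 ADAM and ADAMTS genes 6 were lower and 5 higher, the highest being Adamts4 (3.45). Of 11 inhibitors and clearance receptors 6 were lower and 4 higher, led by Serpinf1 (-4.48) and the proteoglycan Spock2 (4.52). Among 6 activators Pcsk5 (-3.56) and Pcsk6 (-1.03) were lower and Bsg, an inducer of metalloproteinases that endothelium of the brain expresses strongly, and Plat higher (3.37 and 1.69). Of 15 transcription regulators 10 were higher and 1 lower, with Fos at 14137 ± 2246 against 813 ± 109 (4.09) and Klf4 at 6273 ± 2362 against 980 ± 91.2 (2.58). Both are early response genes, sorting was done only in brain, and its part in these values was not tested.

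The genes whose array-to-array deviations from their tissue mean were most like those of a member are a description over 15 arrays of 2 tissues, with no test. The highest among 10726 genes were Pnldc1 for Timp1 (r = 0.887), Uck2 for Timp2 (0.881), Twist2 for Timp3 (0.860), Bbs4 for Timp4 (0.845), Sulf1 for Mmp2 (0.903), Camta1 for Mmp14 (0.801), Cdkn1a for Adamts1 (0.842) and Ogfr for Htra1 (0.885). Next after these came Me2 and Srrm1 for Timp1, Eif1ax and Cald1 for Timp2, Fam193a and Adgre5 for Timp3, Tubb2b and Slc43a2 for Timp4, Odc1 and Hs6st2 for Mmp2, Chrac1 and Zfp354c for Mmp14, 4930402H24Rik and Noct for Adamts1 and Gcsh and Spon1 for Htra1. The tissue mean was taken over both genotypes, so a genotype difference enters these correlations. A like difference in a near gene is therefore no separate result. In aorta Cdkn1a, 4930402H24Rik and Noct differed by -0.78, 0.08 and -0.15 between genotypes beside the -0.66 of Adamts1. There Bbs4, Tubb2b and Slc43a2 differed by -0.19, -0.53 and -0.49 beside the -0.97 of Timp4. Sulf1 and Hs6st2, which remove and add sulfate on heparan sulfate, differed by 0.27 and 0.45 in brain beside the 0.54 of Mmp2. Odc1 differed by 0.20 there. Mmp3 was too dim in brain to be given any.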

How the data were processed

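RNA of 9 sorted brain and 6 aorta samples was hybridised to Affymetrix mouse 430 arrays with 15 µg of cRNA in brain, and the authors scaled the linear intensity of all probe sets to a target of 150, per the series' design text. Trimmed by 2%, every array averaged 150. The sources used here do not give the probe summary method, background correction, detection calls or genome build. The number of arrays limits the precision. Groups came from the sample titles. Symbols came from the platform annotation, and the 9 members' symbols were current in RefSeq. The members, gene lists and tests were chosen with earlier results of these data known.

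Intensities were taken as log2(value + 16). After removal of 64 control probe sets, the brighter part (mean log2 intensity no lower than the median in the arrays of that fit, 22519) entered each test. Tests were two-sided, by limma (version 3.58.1, R 4.3.3), using lmFit and then eBayes with its trend option, and calls were made at 5% after Benjamini-Hochberg adjustment. They compared genotypes within brain and within aorta, the difference between these over 15 arrays, and brain against aorta within each genotype. The fit was tested on simulated data. All 9 members were named at every probe set, with up to 4 genes by smallest p from each other list and the 3 nearest genes of each member, and the brightest probe set stood for a gene. Alternatives were pseudocounts of 1 and 64, no filter, quantile normalization, no intensity trend, array weights, all arrays in 1 fit, the aorta number series as a block, and each array left out. Marker lists covered smooth muscle and pericytes, fibroblasts, endothelium, astrocytes, neurons (summed intensity 457 to 1413 in Notch3 +/- brain cells), oligodendrocytes, microglia, choroid plexus, adipocytes and striated muscle (78.8 to 152 in the same).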

Additional observations from a re-analysis of the deposited data

Results flagged for a closer look

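In 44 groups of 4 or 5 brain arrays, 6 had an array far from the others on the intensity scale and 3 on the log2 scale, by the gap to the nearest array over the group's range (critical values 0.829 for 4 arrays and 0.71 for 5). Chance flags about 1 in 20 groups, and the aorta groups of 3 were not examined. In Notch3 -/- brain cells Timp1 was lowest on array F (0.727 on log2, intensity 23.1 where the other 4 arrays stood at 74.9 to 109). Timp2 was highest on array B at 1460287_at (0.75, intensity 1625) and at the dim 1437081_at (0.896 on intensity and 0.867 on log2, at 13.9). Timp3 was highest on array A at 1449335_at (0.753, intensity 3494). Mmp14 was highest on array F at the dim 1440920_at (0.755, intensity 18.9). Htra1 was highest on array D at 1438251_x_at (0.778 on intensity and 0.739 on log2, at 12018). In Notch3 +/- brain cells Timp2 was highest on array G at the dim 1450040_at (0.842, intensity 55.1). No member passed the test of a genotype difference that differs between tissues.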

How the results depend on the processing

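No member probe set passed 5% between genotypes, or in the difference between tissues, in any alternative run, and on leaving out arrays 10 to 12 passed between tissues in Notch3 +/- and 13 to 16 in Notch3 -/-. Of 1485 alternative values for 93 results, 1400 kept direction and side of the threshold, 18 lost a call, 14 gained one and 53 changed sign. The cause of these changes was not tested.

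Over all probe sets, the brain count of 32 became 50 with a pseudocount of 64, 18 without a filter, 52 with array weights and 137 with all arrays in 1 fit (30.7% higher in Notch3 -/- against 15.6%), and 10 to 38 on leaving out arrays (10 without H, 14 without D, 15 without G and 21 without C). The aorta count of 0 became 2 with all arrays in 1 fit and 0 to 7 on leaving out arrays (7 without 5556, 7 without 6167, 1 without 5559). The count of 4 for the difference between tissues became 13 with array weights and 0 to 7 on leaving out arrays (7 without 5556, 0 without 6166, 1 without 5561 and 1 without 5558).

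With array weights the sign turned in brain for Timp2 1433662_s_at (-0.12), Timp4 1450974_at (0.08), Adamts1 (-0.16) and Htra1 1438251_x_at (0.01), in aorta for Timp2 1454677_at (0.03), and in the difference between tissues for Timp2 1433662_s_at (-0.28). With quantile normalization it turned for Adamts1 in brain (-0.02), Timp2 1454677_at in aorta (0.00) and, between tissues, Htra1 1438251_x_at (-0.02 in Notch3 +/- and -0.17 in Notch3 -/-) and 1416749_at (-0.28 in Notch3 +/-). That scaling moved the median of all probe sets between tissues from 0.07 to 0.01 in Notch3 +/- and from 0.11 to 0.04 in Notch3 -/-.

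On leaving out each array, values that crossed 0 in brain were Timp2 1460287_at (-0.25 to 0.09), 1454677_at (-0.07 to 0.29) and 1433662_s_at (-0.15 to 0.25), Timp3 1419089_at (-0.27 to 0.02) and 1449334_at (-0.38 to 0.06), Timp4 1423405_at (-0.03 to 0.50) and 1450974_at (-0.30 to 0.15), Mmp14 1448383_at (-0.37 to 0.13), Adamts1 (-0.30 to 0.27), and Htra1 1438251_x_at (-0.31 to 0.07) and 1416749_at (-0.22 to 0.03). In aorta they were Timp2 1454677_at (-0.03 to 0.06), 1433662_s_at (-0.18 to 0.37) and 1450040_at (-0.16 to 0.30), Timp3 1449335_at (-0.08 to 0.24) and Mmp14 1448383_at (-0.03 to 0.20). In the difference between tissues they were Timp2 1460287_at (-0.32 to 0.02), 1454677_at (-0.07 to 0.29) and 1433662_s_at (-0.31 to 0.24) and Mmp14 1448383_at (-0.45 to 0.05). Between tissues they were Timp3 1419089_at (-0.00 to 0.29) and Timp4 1450974_at (-0.16 to 0.00) in Notch3 +/-, and Htra1 1416749_at (-0.17 to 0.03) in Notch3 -/-. Those of Timp3 and Timp4 crossed 0 only without array E, by less than the rounding.

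No paired analysis was possible because array names are not shared between groups. The spread of the brain arrays limits precision there.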
